A study of Sus scrofa with 4 samples.

Results

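Of 364 predicted star strands in these hippocampal small RNA libraries, 41 reached 50 or more reads summed over the 4 libraries, and each of the 41 has a mature row with the same number. A miRNA hairpin yields 2 arms, and the authors' table of predicted miRNAs names 1 row of a hairpin the mature and the other the star. The 41 star strands were chosen by their summed reads alone. Their depth is therefore a description. So is the ratio of star to mature reads summed over the libraries, since a minimum of star reads sets the lowest ratio that a mature arm of a given depth can have. Differences of the ratio between libraries were not used in the choice. Together they held 71932 of 73798 star reads, or 97.5%, and the first 4 alone held 68.1% of all star reads. The table lists 688 mature rows, of which 324 have no star row. Star rows made up 4.43% of all predicted reads, which include 909803 reads of a single mature row, number 467.

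The libraries come from newborn purebred Rongchang piglets, a Chinese breed, of 1 litter, with the genotype given as wide type. The litter of 8 (4 females and 4 males) was split at random with equal sexes. The 4 control piglets are labelled as not injected, and the 4 others were given 200 mg iron dextran, an iron-sugar complex, in the muscle on days 3 and 4 of life to raise oxidative stress. The study asked which miRNAs are associated with oxidative stress in the hippocampus. Ventral and dorsal hippocampus were taken apart and mixed within each group, so each combination of treatment and region is 1 pooled library. Values listed without a library name stand in library order: the control libraries (ventral, dorsal), then the iron libraries (ventral, dorsal). The sources used here do not give the age at sampling or how many piglets went into each pool. With no replicate, variation between piglets, dissections and library preparations could not be measured, though differences between 2 libraries hold it too. All intervals are 95% exact intervals of counting error only. They leave that variation out, and amplified reads are not independent molecules, so these intervals are too narrow for the piglets as such.

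A precursor hairpin is cut in the nucleus and again in the cytoplasm, which leaves a short duplex of the 2 arms. One strand is loaded into an Argonaute protein and guides it to target mRNAs, and the other, the star or passenger strand, is mostly released and degraded. The end of the duplex that is less stably paired is known to favour loading of the strand that starts there. For some hairpins both arms are loaded, and the balance of the arms is known to differ between tissues.

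Sequences of the predicted rows were not used here. To show what the 2 arms of a hairpin look like, 2 annotated hairpins of unlike arm balance from the same libraries are given: miR-425, with 0.857 reads of the 3p arm for each read of the 5p arm, and miR-30e, with 0.0140. The sequences are those of conserved entries of these names that the authors list for pig and other species, written 5′ to 3′ with the seed (bases 2 to 8), the part that pairs with targets, in capitals.
miR-425-5p: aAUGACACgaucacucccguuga
miR-425-3p: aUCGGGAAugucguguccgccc
miR-30e-5p: uGUAAACAuccuugacuggaagcu
miR-30e-3p: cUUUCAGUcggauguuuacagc
In both hairpins the 2 arms have different seeds.

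The libraries held 11396806 to 13839559 reads of annotated miRNAs and 362132 to 514411 reads of predicted miRNAs. Levels are given as CPM, reads per 1000000 annotated reads after TMM scaling, a scaling that sets the bulk of miRNAs equal between libraries. The tissue label was checked on marker miRNAs. The neuronal markers, 5 of 5 measured and including miR-9 and miR-124a, summed to 232500 to 260300 CPM, and the liver marker miR-122 stood at 4.554 to 7.795 CPM. The control ventral library stood apart in 4 of the 6 epithelial markers that have a row, with a sum of 457.1 CPM against 127.4 to 153.4 CPM in the other three. In bulk tissue, fewer cells of a type and less RNA per cell cannot be told apart.

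Summed over all 4 libraries, the ratio of star to mature reads ranged from 0.00326 (number 10) to 1.22 (number 542), with a median of 0.116. In 23 of the 41 it was 0.1 or more, and in 9 it was 0.5 or more. The mature arms had between 52 and 68920 reads. The median ratio of the 41 was 0.114 and 0.122 in the control libraries and 0.110 and 0.125 in the iron libraries (ventral, then dorsal). The plot of ratios in 4 libraries shows that differences between hairpins were larger than those between libraries.

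**Figure D1:**
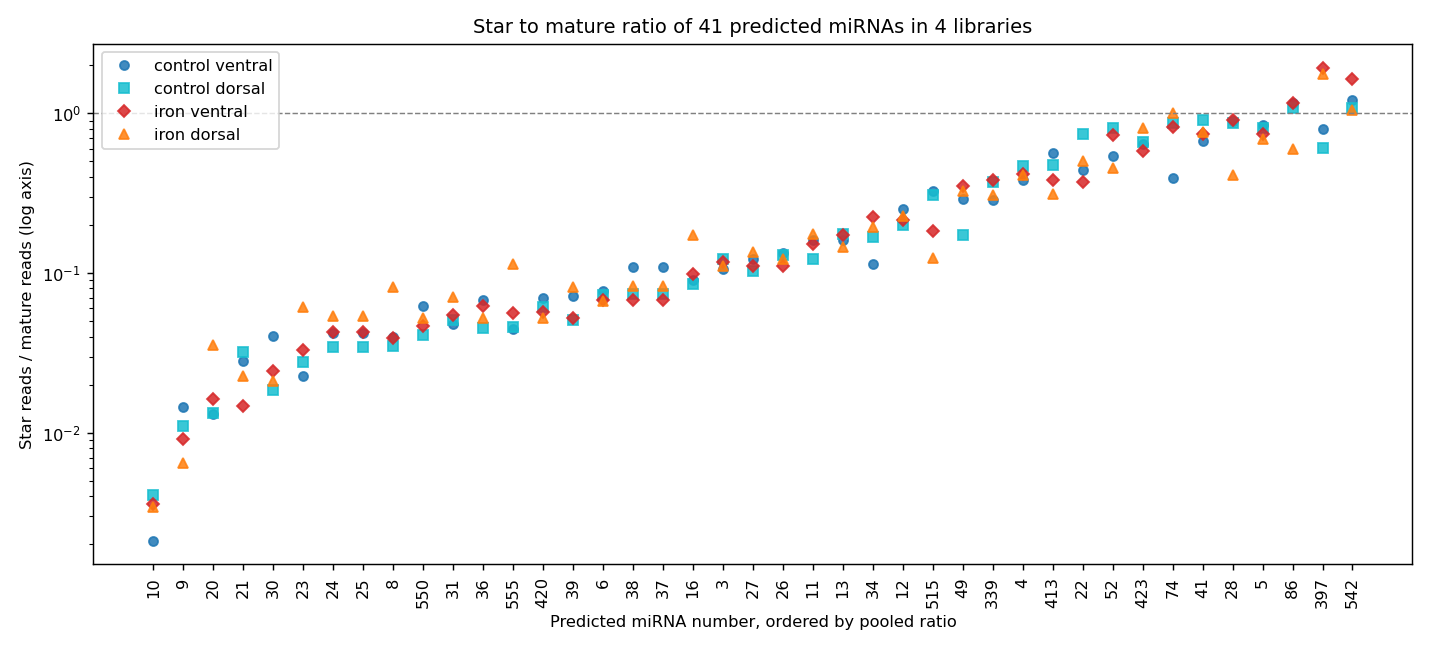
Star reads divided by mature reads (log axis) for the 41 predicted miRNAs, ordered by their pooled ratio, with 1 point for each library and a dashed line at equal reads. The hairpins span 0.00326 to 1.22, while the 4 points of a hairpin mostly lie close together, with the iron dorsal triangles of numbers 20, 8, 555, 16 and 28 away from the other three.

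For comparison, 55 annotated pig hairpins have a 5p and a 3p row with 50 or more reads in the arm with fewer reads. Their ratio of minor to major arm had a median of 0.0910 and ranged from 0.000267 to 0.939. Summed over libraries it cannot pass 1, since the minor arm is defined by its reads. The highest ratio is that of miR-199a, which has fractional reads, so its value depends on how the authors divided reads between rows. Annotated major arms reached 2825435 reads (miR-30e), against 68920 for the mature arms, so the same read minimum lets their ratios go lower. Of the annotated pairs 61.8% had a ratio of 0.05 or more, against 75.6% (31) of the predicted pairs, and 16.4% against 22.0% had a ratio of 0.5 or more. The plot of both distributions shows them close together above 0.1, with more annotated pairs in the low range. The difference between the sets was not tested.

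**Figure D2:**
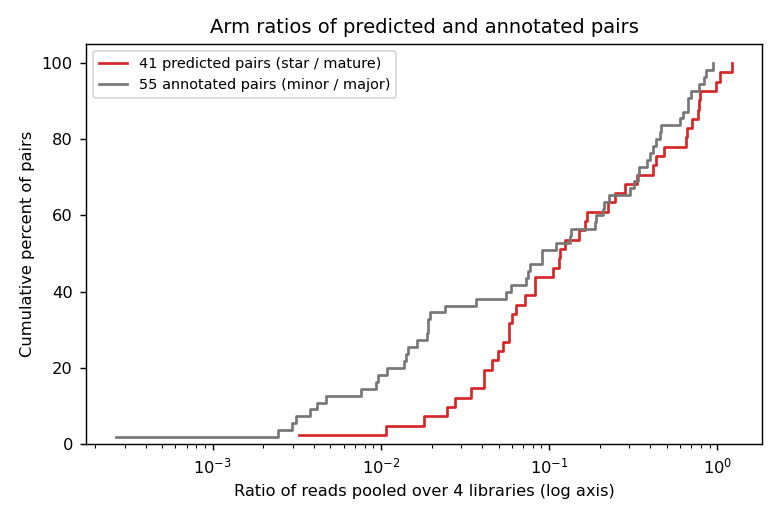
Cumulative percent of hairpins (y axis) against the pooled ratio of the 2 arms (log x axis), for 41 predicted pairs (star to mature, red) and 55 annotated pairs (minor to major, grey). The medians are 0.116 and 0.0910, and the grey line reaches further down, to 0.000267.

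Deep mature arms did not all have a star of 50 or more reads. Of 63 mature rows with 1000 or more reads, 47 have a star row and 29 have one among the 41. Number 467, the most abundant predicted mature row with 909803 reads, had 6.5 star reads, a ratio of 7.14e-06. Number 2 had 13 star reads for 85319.5 mature reads, and number 7 had 1 star read for 26791.5. Number 607, with 42451 mature reads, has no star row and so no ratio. These 4 hairpins were named after their values were seen, and they lie outside the 41 because of their few star reads, so their low star reads are no finding.

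The 8 deepest star strands held most of the star reads. Star 4, the deepest, had 4938 and 4243 reads in the control libraries (ventral, then dorsal) and 3974 and 3702 in the iron libraries. After scaling its level was nearly flat, at 340.7, 343.9, 322.3 and 347.7 CPM. Its ratio to mature 4 was 0.383 (0.371 to 0.396), 0.469 (0.452 to 0.487), 0.414 (0.399 to 0.430) and 0.408 (0.393 to 0.424). Control dorsal was highest, by 1.13-fold over the next, and there mature 4 was lowest, at 732.6 CPM.

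Star 5 was not flat. It had 5520 and 3506 reads in the control libraries and 3086 and 1415 in the iron libraries, or 380.9, 284.1, 250.3 and 132.9 CPM. Mature 5 went the same way, at 452.7, 353.5, 339.2 and 193.9 CPM. The ratio differed less, from 0.842 (0.812 to 0.872) in control ventral to 0.686 (0.640 to 0.734) in iron dorsal. Both arms of this hairpin were lowest in the iron dorsal library and highest in control ventral, with the other libraries between.

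Number 413 differed in opposite ways in its arms. The star had 4191 and 2873 reads in the control libraries and 2820 and 2066 in the iron libraries, and the ratio was 0.563 (0.542 to 0.584), 0.476 (0.455 to 0.497), 0.383 (0.367 to 0.400) and 0.311 (0.296 to 0.327). No 2 of these intervals overlap, and both iron libraries lay below both control libraries. Some reads of number 413 are fractional, so its values depend on how the authors divided reads between rows. The star was lower in iron (228.7 against 289.2 CPM in ventral and 194.0 against 232.8 CPM in dorsal), while the mature was higher (597.4 against 514.1 CPM and 624.0 against 489.5 CPM). Iron divided by control, the ratio was 0.681 (0.642 to 0.721) in ventral and 0.654 (0.611 to 0.699) in dorsal, 2 comparisons that share no library, though within each group both regions come from the same piglets.

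Mature 3 is the deepest mature arm of the 41, with 68920 reads. Star 3 had 1973, 2376, 1956 and 1590 reads in library order, and its ratio stayed between 0.106 and 0.123. Star 6 had 904, 507, 542 and 618 reads and a ratio of 0.0667 to 0.0772, the narrowest range among the 41, at 1.16-fold from lowest to highest library. Its 2 arms went the same way: the star was at 62.38, 41.09, 43.96 and 58.04 CPM and the mature at 808.4, 564.9, 653.0 and 870.5 CPM.

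Star 12 had 750, 621, 616 and 689 reads, with ratios of 0.201 to 0.252, and star 11 had 718, 495, 521 and 560 reads, with ratios of 0.122 to 0.175. Neither range reached 1.5-fold. Star 22 had 512, 458, 399 and 224 reads. Its ratio was 0.440 (0.395 to 0.488), 0.746 (0.660 to 0.843), 0.373 (0.332 to 0.419) and 0.503 (0.427 to 0.592), higher in dorsal than in ventral in both treatments. Here the mature arm differed by region: mature 22 was at 80.39 and 86.7 CPM in the 2 ventral libraries and at 49.76 and 41.79 CPM in the 2 dorsal ones, so the regions did not overlap.

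**Figure D3:**
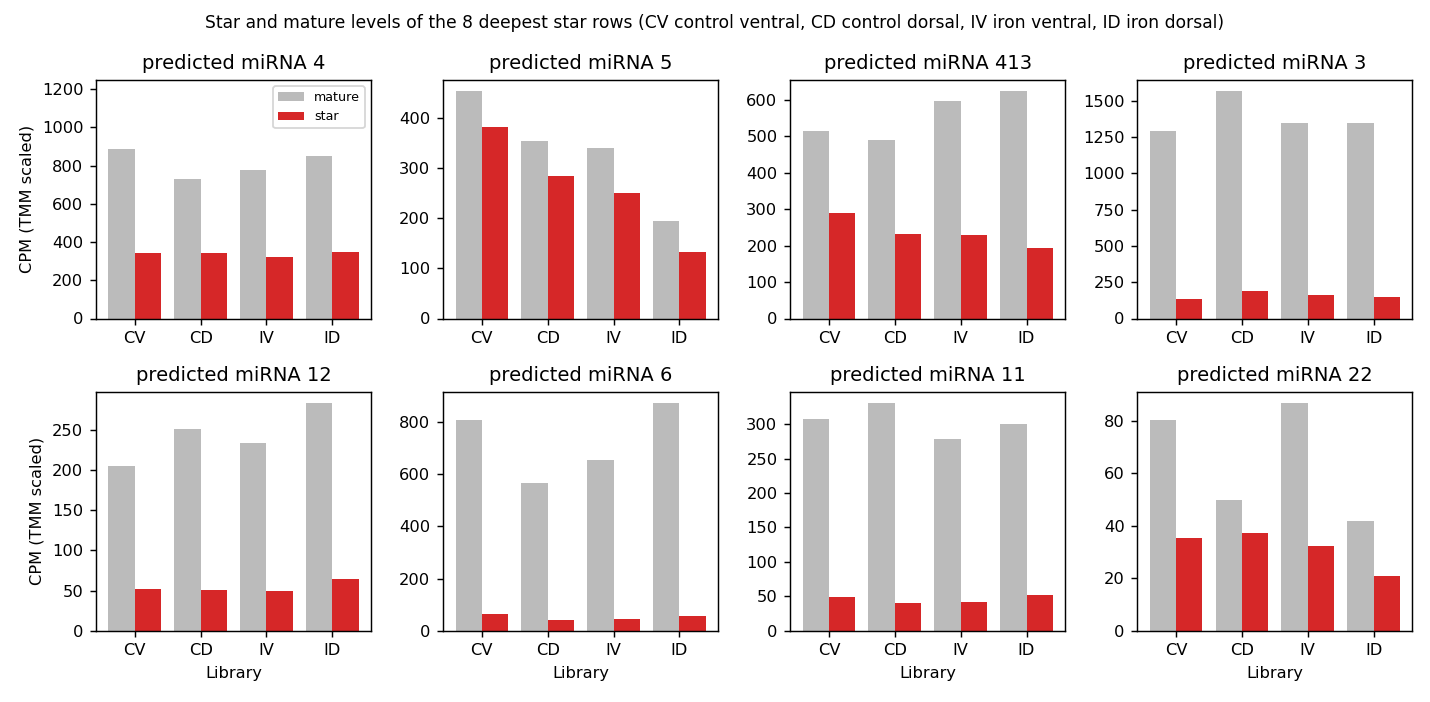
Levels in CPM (y axis, TMM scaled) of the mature row (grey) and the star row (red) of the 8 deepest star strands in the control ventral (CV), control dorsal (CD), iron ventral (IV) and iron dorsal (ID) libraries. Both arms of number 5 are lowest in iron dorsal (star 132.9 CPM), whereas for number 413 the star is lower and the mature higher in the iron libraries.

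In 3 of the 41 hairpins the star exceeded the mature in at least 1 library, all of them shallow. Star 542 did so in all 4 libraries, with 17 against 14, 28 against 26, 31 against 19 and 25 against 24 reads in library order. Each of its intervals holds a ratio of 1 (0.563 to 2.66 in control ventral, 0.893 to 3.06 in iron ventral). Star 397 had 28 against 35 and 14 against 23 reads in the control libraries, and 27 against 14 and 14 against 8 in the iron libraries. Its ratio was 0.800 (0.469 to 1.35) and 0.609 (0.290 to 1.23) in control ventral and dorsal, and 1.93 (0.977 to 3.98) and 1.75 (0.685 to 4.82) in iron ventral and dorsal, so the intervals of the groups overlap. Star 86 exceeded its mature except in iron dorsal, with 14 against 12, 13 against 12, 15 against 13 and 9 against 15 reads. At this depth it was not detectable which arm of these hairpins was the more abundant.

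Among hairpins with deeper stars, the highest summed ratios were those of numbers 5 (0.788), 28 (0.775) and 41 (0.771). Star 41 had 86, 115, 85 and 64 reads against 128, 127, 115 and 84 mature reads, with ratios of 0.672 (0.505 to 0.890), 0.906 (0.697 to 1.18), 0.739 (0.552 to 0.987) and 0.762 (0.542 to 1.07). At the other end, star 10 had 11, 19, 18 and 11 reads beside a mature arm of 3227 to 5220 reads. Star 9 had 86, 51, 42 and 25 reads, and its ratio was 0.0145 (0.0116 to 0.0180), 0.0111 (0.00825 to 0.0146), 0.00920 (0.00663 to 0.0125) and 0.00647 (0.00418 to 0.00956) in library order. Both iron libraries were below both control libraries for star 9 too, but the intervals of neighbouring libraries overlap. Star 21 had 37, 49, 20 and 24 reads and ratios of 0.0148 to 0.0321.

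The read minimum cut through a continuous range. Just inside it lie star 86 and stars 37 and 38, each with 51 reads, and just outside it stars 62, 442 and 83, with 48, 44 and 42 reads. Numbers 37 and 38 hold identical reads in every library in both arms, as do numbers 24 and 25, so the 41 hold 39 distinct read profiles. In 15 of the 41 hairpins at least 1 arm has fractional reads, so reads of these rows were divided by the authors. Numbers 5, 6, 9, 23, 413 and 555 are among these hairpins.

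Iron against control in the dorsal hippocampus gave the largest number of differences in the arm balance. The ratio of star to mature was at least 2-fold different, with an interval that excludes 1, for 7 of the 41: it was higher in iron for numbers 8, 16, 20, 23 and 555 and lower for 28 and 515. Among all 96 pairs, predicted and annotated, 5.21% were counted as higher and 2.08% as lower, and all of these were predicted pairs, since 0 of 55 annotated pairs were counted. That 0 depends on the 2-fold limit. Without it, the interval excluded 1 for 17 of the 41 and for 33 of 55 annotated pairs. The largest such annotated difference was that of miR-374a, 1.72-fold higher in iron. The annotated minor arms were read more deeply than most of the stars, and a test of predicted against annotated pairs was not made. The median log2 difference of the ratio was 0.15 over the 41 and -0.08 over the 55 annotated pairs.

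Number 8 shows the pattern at depth. Star 8 had 325 and 224 reads in the control libraries and 230 and 369 in the iron libraries, while mature 8 had 8176, 6431, 5911 and 4545. The ratio was 0.0398 (0.0355 to 0.0444), 0.0348 (0.0304 to 0.0398) and 0.0389 (0.0340 to 0.0444) in the first 3 libraries and 0.0812 (0.0728 to 0.0903) in iron dorsal. Against control dorsal that is a ratio of 2.33 (1.96 to 2.78), with the star 1.91-fold higher (1.61 to 2.26) and the mature 1.22-fold lower.

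Star 16, counted here but outside the rule for naming and named after its values were seen, had 258, 215, 222 and 262 reads, and its ratio was 0.0910, 0.0855, 0.0984 and 0.173 in the same order, a dorsal difference of 2.02-fold (1.66 to 2.46) between iron and control. Star 555 had 93, 76, 82 and 102 reads with ratios of 0.0449, 0.0461, 0.0562 and 0.114, a difference of 2.46-fold (1.79 to 3.40). Star 20 had 23, 21, 23 and 37 reads with ratios of 0.0131, 0.0133, 0.0163 and 0.0353, a difference of 2.65-fold (1.5 to 4.79). In these 3 hairpins and in number 8 the star was higher and the mature lower in iron dorsal than in each of the other three libraries. Star 23 had 13, 16, 18 and 29 reads, with a ratio of 0.0613 (0.0406 to 0.0892) in iron dorsal and 0.0277 (0.0157 to 0.0454) in control dorsal.

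Number 28 went the other way. Star 28 had 550 and 363 reads in the control libraries and 371 and 191 in the iron libraries, and mature 28 had 612, 419, 410 and 462. In the first 3 libraries the ratios were close to each other, at 0.899 (0.800 to 1.01), 0.866 (0.751 to 0.9995) and 0.905 (0.784 to 1.04), and the ratio was 0.413 (0.347 to 0.490) in iron dorsal. Against control dorsal that is 2.10-fold lower (1.67 to 2.63), with star 28 at 0.610 (0.509 to 0.729) of its control level and mature 28 at 1.28 (1.12 to 1.46). Star 515 had 64, 52, 51 and 9 reads and mature 515 had 195, 170, 279 and 72; the ratio was 2.45-fold lower (1.12 to 5.94), on 9 star reads in iron dorsal.

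**Figure D4:**
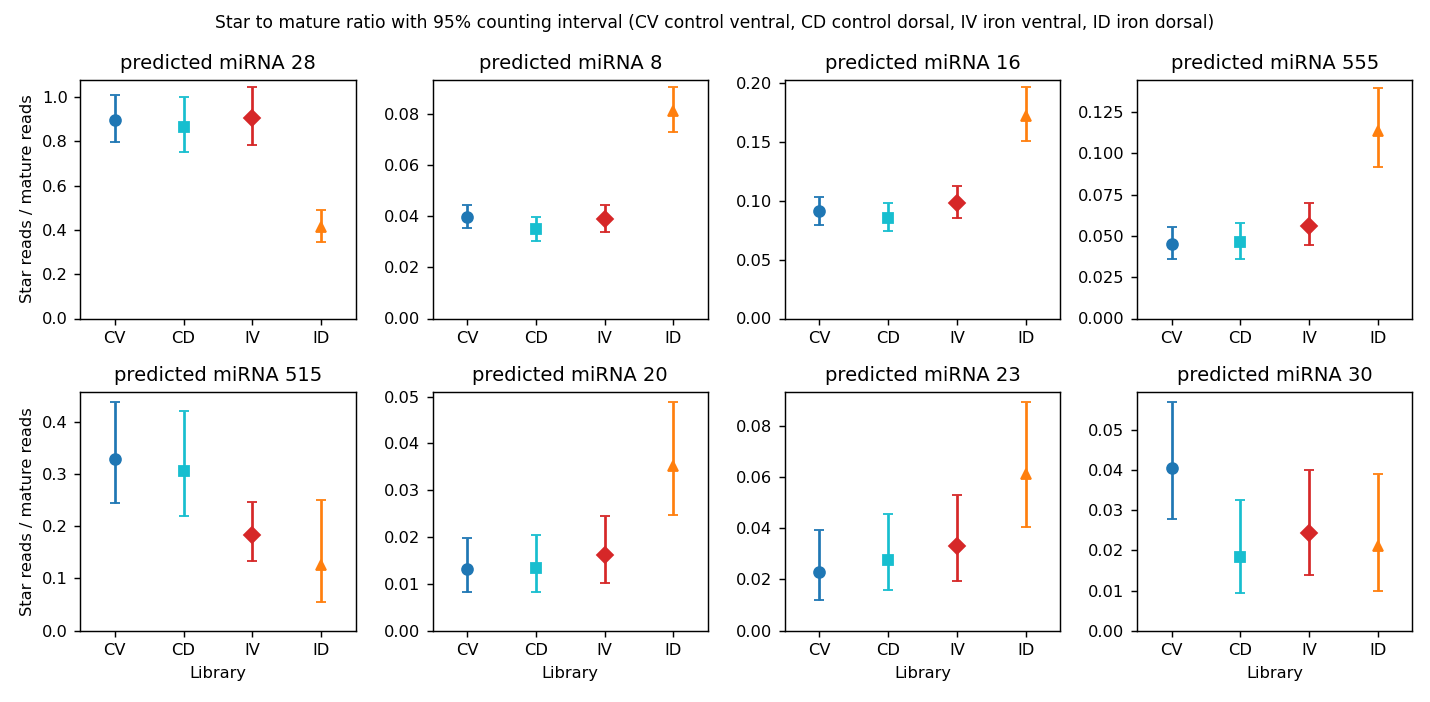
Star reads divided by mature reads (y axis, from 0) in the control ventral (CV), control dorsal (CD), iron ventral (IV) and iron dorsal (ID) libraries, with 95% counting intervals, for the 8 hairpins whose ratio was at least 2-fold different, with an interval excluding 1, in any of the 4 comparisons. For numbers 28, 8, 16, 555 and 20 the iron dorsal interval lies apart from those of the other three libraries; for number 30 the control ventral value is the highest.

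Most of these differences rest on the iron dorsal library alone. Its ratio lay at least 1.5-fold outside the range of the other three, with no overlap of intervals, for 5 of the 41 hairpins (4 higher, 1 lower), a count chosen after the values were seen. No other library did so for any of the 41. Among the 55 annotated pairs this held for 1 pair in iron dorsal (lower) and 1 in control ventral (higher). Just short of 1.5-fold were number 22 in control dorsal (1.48-fold) and annotated miR-374a (1.49-fold) and miR-142 (1.47-fold) in iron dorsal. Without the size limit, control ventral, control dorsal and iron ventral lay apart for 1, 3 and 0 of the 41. For the 55 annotated pairs these counts were 2, 3 and 4. The iron dorsal interval lay apart from the others for 6 of the 41 and for 16 of 55 annotated pairs. In this library the summed oligodendrocyte markers were lowest (8811 CPM, against 10260 to 13910 CPM in the other three), and so were the summed neuronal markers (232500 CPM), of which miR-124a and miR-138 but not the other three markers were lowest here. The summed astrocyte and glia markers (37090 CPM) were highest here. So were the summed immune markers, by little (1668 CPM, against 1643 CPM in control dorsal). Of these, miR-146b was highest here (1019 CPM), miR-142-5p was lowest (542.1 CPM) and miR-150 was neither (107.0 CPM). The part of these markers in the ratios was not tested.

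In levels, iron against control in dorsal hippocampus counted 2 stars as at least 2-fold higher and 3 as lower, where 2.49% and 2.11% of 522 rows with 50 or more reads were counted. The higher ones were star 20, at 2.04-fold (1.16 to 3.67), and star 23, at 2.10-fold (1.10 to 4.14). The lower ones were star 5, at a ratio of 0.468 (0.439 to 0.498), star 515, at 0.201 (0.0869 to 0.411), and star 52, at 0.431 (0.227 to 0.781). Star 52 had 22, 43, 27 and 16 reads. Neither of the higher ones was counted under total count scaling or under the authors' RPM (log2 ratios of 0.90 to 0.96). Of the mature arms 0 were higher and 2 were lower, numbers 515 and 397.

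Iron against control in the ventral hippocampus counted 0 of 41 ratios of star to mature as at least 2-fold different; over all 96 pairs 0% were counted as higher and 1.04% as lower, the latter being the annotated miR-499. Without the 2-fold limit, the interval excluded 1 for 13 of the 41 and for 25 of 55 annotated pairs. In levels, 2 stars were counted as higher and 0 as lower, where 1.15% and 2.87% of 522 rows were. These were star 542, at 2.14-fold (1.15 to 4.13), and star 74, at 2.35-fold (1.09 to 5.37), which had 11, 13, 22 and 12 reads. Their mature arms had ratios of 1.6 (0.758 to 3.44) and 1.13 (0.643 to 2.0). Mature 397 and mature 49 were counted as lower, at 0.470 (0.234 to 0.896) and 0.489 (0.324 to 0.725), while their stars were at 1.13 (0.643 to 2.0) and 0.588 (0.277 to 1.19).

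The iron differences of the 2 regions were set side by side for intervals that exclude 1, whatever their size. The ratio of star to mature was lower in iron for 9 of the 41 in ventral and 9 in dorsal, and 5 were in both lists (numbers 5, 413, 22, 9 and 515). It was higher for 4 in ventral and 8 in dorsal, with 0 in both, and it went opposite ways for 4. Of 55 annotated pairs 12 were lower and 13 higher in ventral, and 19 were lower and 14 higher in dorsal. Among these pairs 6 were higher in both, 6 lower in both and 8 opposite. For number 5 the ratio of iron to control was 0.877 (0.827 to 0.930) in ventral and 0.853 (0.786 to 0.926) in dorsal. For number 9 it was 0.634 (0.426 to 0.929) and 0.583 (0.345 to 0.960), and for number 22 it was 0.849 (0.725 to 0.995) and 0.675 (0.549 to 0.829). By the same measure 4 stars had a lower level in iron in both regions (5, 413, 28 and 9), 0 had a higher one and 5 went opposite ways. For annotated minor arms these counts were 5 lower, 5 higher and 7 opposite.

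Dorsal against ventral hippocampus in control piglets counted 0 ratios as higher and 1 as lower, number 30, where 0% and 2.08% of 96 pairs were counted. Star 30 had 34, 12, 16 and 10 reads, and its ratio of 0.0405 (0.0279 to 0.0571) in control ventral was 2.19-fold (1.10 to 4.69) that of control dorsal. In levels 1 star was higher, star 52 at 2.30-fold (1.34 to 4.03), and 2 were lower, star 30 at 0.415 (0.195 to 0.821) and star 49 at 0.361 (0.141 to 0.822), where 0.958% and 5.36% of 522 rows were. Star 49 had 26, 8, 13 and 12 reads. For stars 30 and 49 the control ventral library, which also stood apart in the epithelial markers, was the highest, and the part of those markers was not tested; in the other three libraries the ratio of number 30 was 0.0185 to 0.0245. Mature 542 was higher in dorsal, at 2.18-fold (1.10 to 4.52).

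Dorsal against ventral in iron piglets counted 3 ratios as higher, numbers 8, 20 and 555, and 1 as lower, number 28, where 3.12% and 1.04% of 96 pairs were counted and 0 of 55 annotated pairs. These are hairpins counted for iron in dorsal hippocampus, a comparison that shares the iron dorsal library with this one. The ratio of dorsal to ventral was 2.09 (1.76 to 2.48) for number 8, 2.17 (1.25 to 3.85) for number 20, 2.02 (1.48 to 2.77) for number 555 and 0.457 (0.365 to 0.572) for number 28. In levels 0 stars were higher and 1 was lower, star 515 at 0.204 (0.0884 to 0.419), where 0.383% and 2.11% of 522 rows were. Mature 515 was lower too, at 0.299 (0.227 to 0.389), and so was mature 22, at 0.482 (0.431 to 0.539).

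Across hairpins the 2 arms went the same way only in part. In the ventral iron comparison 24 of the 41 stars differed in the same direction as their mature arm, and in the dorsal one 26. In the region comparisons of control and iron piglets 27 and 27 did so. Of 55 annotated pairs 29, 33, 38 and 34 did so in the same order, so partial agreement of the arms was no trait of the predicted stars. Directions were read from log2 differences rounded to 2 decimals. A pair with only 1 arm rounding to 0 was not counted as going the same way, so these counts can be too low. In the ventral iron comparison this left out annotated miR-140, among others, at 1.003 for its minor and 1.118 for its major arm. Pearson's r between the log2 differences of star and mature was 0.35, 0.26, 0.56 and 0.56 in these 4 comparisons across 41 hairpins, and 0.40, 0.20, 0.47 and 0.42 across 55 annotated pairs. Spearman's rho was 0.32, 0.28, 0.53 and 0.29 across the 41, so the last value is lower by rank. These are descriptions across hairpins of the same libraries and share their scaling. From the lowest to the highest library the ratio differed by a median of 1.62-fold among the 41 and 1.34-fold among annotated pairs; among pairs with 200 or more reads in the lesser arm the medians were 1.38-fold (22 pairs) and 1.33-fold (48 pairs). A range of 2-fold or more was present in 5 of those 22 and in 0 of those 48.

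**Figure D5:**
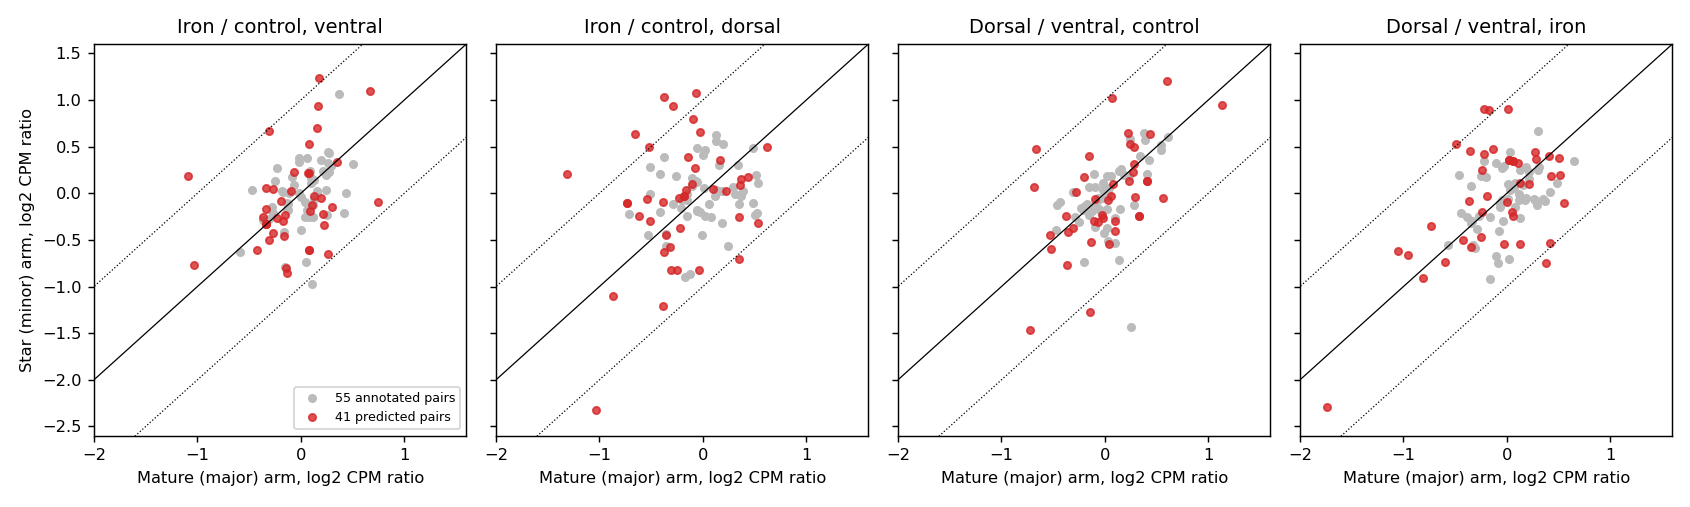
Log2 ratio of CPM between 2 libraries for the mature or major arm (x axis) and the star or minor arm (y axis) in the 4 comparisons, for 41 predicted (red) and 55 annotated (grey) hairpins. The solid line marks equal change and the dotted lines a 2-fold change in the arm balance; in the dorsal iron comparison more red points lie past the dotted lines than in the ventral one, and star 515 is lowest.

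Over all 4 libraries, an additive model of treatment and region leaves 1 residual degree of freedom. That residual is the part of the iron difference that is unlike between the regions. The p-values are set against it, after moderation over all pairs or rows, and say nothing of single piglets. A hairpin that differs in the iron dorsal library alone enlarges its own residual, so this model can hardly call it. For the ratio of star to mature, limma called 0 of 96 pairs (0%) for iron and 0 (0%) for region after Benjamini-Hochberg adjustment at 0.05, and 7 and 0 had an unadjusted p under 0.05, 6 of the 7 among the 41. The smallest p was that of number 397, at a log2 iron difference of 1.35 ± 0.17 (SE), higher in 2 of 2 regions, with an adjusted p of 0.556 in limma. Numbers 515 (-1.04 ± 0.20), 9 (-0.71 ± 0.16), 413 (-0.58 ± 0.16), 21 (-0.70 ± 0.20) and 23 (0.83 ± 0.24) followed, each with an adjusted p of 0.639 in limma. The SEs of this fit do not take read depth into account. For number 397 the counting intervals of iron against control hold 1 in both regions (0.9936 to 5.94 in ventral, 0.8499 to 9.99 in dorsal). Number 515 rests on 9 star reads in iron dorsal. For levels, edgeR's quasi-likelihood test called 0 of 364 rows (0%) for iron and 0 (0%) for region, with 17 and 15 at an unadjusted p under 0.05; DESeq2 called 0 for region, with 25. Of the 41 stars 18 reached 10 CPM and were tested; star 5 came first among them, at a log2 difference of -0.85 for iron (edgeR adjusted p of 0.818) and -0.67 for region (0.724). For iron, DESeq2's Wald test called 1 row, which is no star, and gave star 5 an adjusted p of 0.0570; with total count scaling edgeR called star 5 as lower, with an adjusted p of 0.00518.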

How the data were processed

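Small RNA of 4 pooled libraries was analysed. The submitters' processing notes name cutadapt 1.2.2 and the builds Sscrofa 10.2 and susScr 3; the sources used here do not give the aligner, quantifier or miRNA predictor. The authors deposited estimated counts (reads, in part fractional: 81.8% to 84.7% of the predicted cells are exactly whole, zeros included) and RPM, per the file headers. Reads shared between rows were divided by the authors in a way not given here, so rows with similar sequences are uncertain. Another 8 columns of per-sample values were not used.

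Reads were rounded to whole numbers. Annotated rows that share their precursors and differ by at most 0.1% in reads were merged (326 to 321), and TMM factors came from these rows (edgeR 4.0.16). Level ratios carry exact conditional binomial intervals (scipy 1.17.1), arm ratios Clopper-Pearson intervals, and differences of arm ratios Fisher's conditional intervals (R 4.3.3). A value was counted at 2-fold or more with the interval excluding 1. Arm ratios were tested with limma 3.58.1 after adding 0.5 reads to each arm, and levels (10 CPM or more in at least 1 library) with edgeR's quasi-likelihood test, DESeq2 1.42.0 being an alternative; adjusted p-values are Benjamini-Hochberg over all rows or pairs. Both tests fitted treatment and region as additive terms. Alternatives covered scaling, read minimum, fold, rounding, identical pairs, pseudocount and filter.

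Named hairpins are the 8 deepest stars, those with the star above the mature in any library, the 12 largest of those counted in any comparison, the 6 lowest and 6 highest pooled ratios, and 3 on each side of the read minimum. A likeness between hairpins over 4 libraries was not computed, since 4 points are too few. The 41 stars, the comparison pairs and the marker lists were chosen with earlier results of these data known. Of the marker lists, summed CPM over the 4 libraries was 31240 to 37090 for astrocyte and glia, 8811 to 13910 for oligodendrocyte, 1163 to 1668 for immune and microglia, 837.1 to 1075 for erythroid, 164.3 to 252.8 for choroid plexus and 169.1 to 276.3 for muscle.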

Additional observations from a re-analysis of the deposited data

Results flagged for a closer look

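In 4 hairpins the ratio of star to mature was higher in iron in 1 region and lower in the other, and neither counting interval holds 1. The difference between the regions was not tested, there being 1 pool for each. The dorsal minus ventral log2 difference was -0.31 for number 4, -0.30 for number 3, 0.43 for number 12 and 0.78 for number 550, so none of the 4 reached 1. In 5 stars the level did so, also untested: by -0.59 for star 3, 1.0 for star 6, 0.62 for star 11, 0.49 for star 550 and 1.2 for star 8. For star 6 the mature arm moved with it, at 0.808 of control in ventral and 1.54 in dorsal. For star 8 it did not, at 0.850 and 0.819.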

How the results depend on the processing

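No paired analysis was possible because the groups share fewer than 2 replicate numbers, beyond the additive model that sets both treatments side by side within each region; leaving out a library leaves the additive model no residual degree of freedom. In the order iron ventral, iron dorsal, region in control and region in iron, the counts of stars with a different level were 2, 5, 3 and 1. With a minimum of 200 star reads they were 0, 1, 0 and 0, among 22 stars, and at 1.5-fold 5, 12, 6 and 7. With total count scaling and with the authors' RPM the dorsal iron count was 3 (0 higher), and with total counts the region count in iron was 2. Counts of different arm ratios, 0, 7, 1 and 4, do not depend on scaling. With 200 star reads or more they were 0, 4, 0 and 3, and at 1.5-fold 4, 9, 3 and 5. With reads as deposited and no interval they were 2, 8, 2 and 4. Counting identical pairs once changed none of the 4 counts. Annotated pairs passed 1.5-fold too, such as miR-129a (1.73-fold lower) in ventral iron and miR-374a (1.72-fold higher) in dorsal iron. Shares over all rows or pairs at these alternative limits are not given here, so the counts at these limits are no result about the 41. The median ratio per library stayed between 0.110 and 0.174 under each alternative. For levels edgeR with total count scaling called 7 rows for iron and 5 for region, all lower, and DESeq2 called 1 for iron, where edgeR with TMM called 0. limma called 0 arm ratios with 1 read added, with pairs of 10 or more reads and with a variance trend, the last added after the data were seen. Of single star levels in 4 comparisons, 2 were no longer counted with total count scaling or RPM, 1 was newly counted with total counts, and none that was counted changed sign under the 3 scalings tried. Depth limits most stars: 18 of 41 reached 10 CPM in any library.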
